A study of Mus musculus with 19 samples.

Results

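Transcripts that were lower after pressure overload in control hearts were followed into hearts that carry a transgene. The 164 members, of 96626 transcripts listed, had a mean of at least 5 TPM in control baseline libraries, a control TAB mean of at most 0.6 times that mean, and every control TAB library below every control baseline library. TPM is an abundance corrected for transcript length and scaled to the same total in every library. Of 8736 transcripts with a control baseline mean of at least 5 TPM, 167 met these limits (1.91%), and 3 of them were set aside because the choice of members leaves out 8 transcript IDs. The values of the 6 control libraries therefore chose the members, and they are given below as a description without a test. The 6 JP2NT-OE libraries took no part in the choice, though the edgeR fit below takes its estimate of spread from all 12 libraries.

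The libraries hold left ventricular RNA of 12-week-old mice, 3 libraries in each of 4 groups. Control mice are littermates that lack the transgene. JP2NT-OE mice carry it: the α-MHC promoter, a driver used for heart muscle cells, makes them overexpress JP2NT, the HA-tagged N-terminal truncate of junctophilin-2. Each genotype was taken at baseline, without surgery, and 3 weeks after transverse aortic banding (TAB) of males at 9 weeks of age. TAB narrows the aorta and raises the pressure that the left ventricle works against. No sham-operated group is among the labels, so load and surgery cannot be told apart. Whether the numbered replicates came from different mice is not stated in the labels, and p-values here measure spread among libraries, which may be technical.

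Pressure overload is known to change the gene program of the ventricle in both directions. Among the genes usually lowered are those of fatty acid oxidation and mitochondrial energy production, potassium channels and proteins of calcium cycling, while natriuretic peptides and matrix genes are usually raised. Junctophilin-2 holds the transverse tubules close to the sarcoplasmic reticulum, and its N-terminal fragment is known to be released by proteolysis in stressed heart muscle and to enter the nucleus. The deposited tables give transcript IDs without gene names, and 0 of these IDs occur in the reference tables used here. The members could therefore not be sorted into pathways or matched to the markers of cell types, and most are described by their length and level. In bulk tissue, fewer cells of a type and less RNA per cell cannot be told apart.

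In control hearts the members' ratio of TAB to baseline mean TPM had a median of 0.499, with quartiles of 0.416 and 0.557. The TAB level was at most 0.5 times the baseline level for 82 members and at most 0.25 times for 10. The median member stood at 9.53 TPM at baseline and 90 were below 10 TPM, while 12 were at 100 TPM or more. Across all 8736 transcripts of at least 5 TPM the median control ratio was 1.19, above 1, so the members were lower still in relation to other transcripts. Just inside the limits were members at 5.01, 5.04 and 5.05 TPM or at ratios of 0.599, 0.598 and 0.597. Just outside were transcripts at 4.85, 4.78 and 4.77 TPM or at ratios of 0.601, 0.602 and 0.603. Without control baseline replicate 2, which had the lowest levels of the 3 for the median member, the same limits took 251 transcripts, 157 of them members.

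The same transcripts were mostly lower after banding in JP2NT-OE hearts too, by a smaller factor. The choice had fixed the control ratio to be low and not the JP2NT-OE ratio, so the smaller factor is partly built in. Of the 164 members, 146 (89.0%) had a lower mean TPM after TAB in JP2NT-OE, compared with 26.4% of 8787 transcripts with a JP2NT-OE baseline mean of at least 5 TPM. The median ratio was 0.736, with quartiles of 0.611 and 0.846, beside a median of 1.09 over those 8787 transcripts. All 3 JP2NT-OE TAB libraries lay below all 3 JP2NT-OE baseline libraries for 82 of the 164 members, beside 5.49% of the 8787 transcripts (5.32% of the 8736 chosen by control baseline level). Of the 137 members that themselves had a JP2NT-OE baseline mean of at least 5 TPM, 79 (57.7%) did so. For 81 members the libraries overlapped, and for 1 every TAB library lay above every baseline library, as did 29.4% of the 8787 transcripts. In TMM-scaled CPM, a count scaled to library size and not to length, the non-overlapping lower members numbered 102, beside 15.8% of transcripts with at least 5 CPM.

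**Figure D1:**
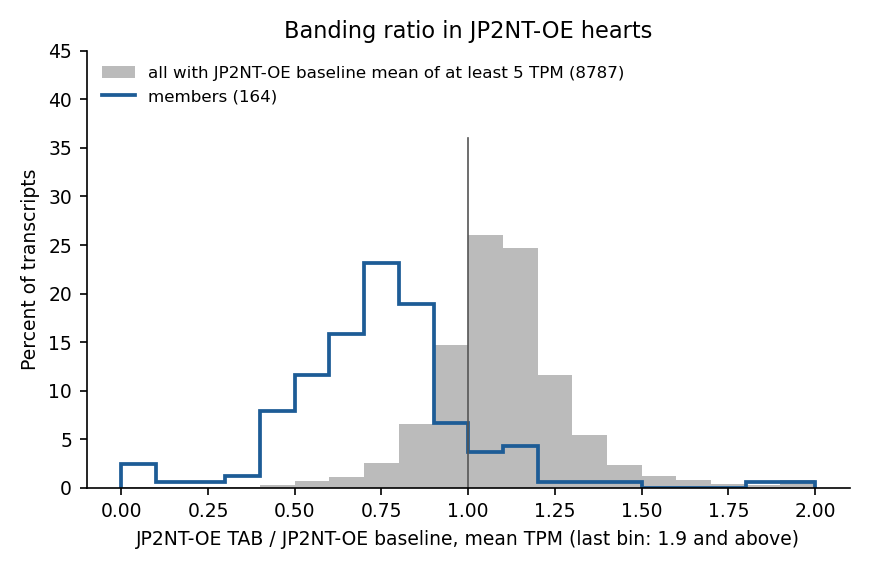
Percent of transcripts (vertical axis) by the ratio of JP2NT-OE TAB to JP2NT-OE baseline mean TPM (horizontal axis, bins of 0.1, the last holding 1.9 and above), for the 164 members (blue line) and for 8787 transcripts with a JP2NT-OE baseline mean of at least 5 TPM (grey). The members centre on 0.736 and the grey transcripts on 1.09.

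The size of the JP2NT-OE ratio varied widely among members. It was at most 0.6 for 40 members (24.4%, compared with 1.42% of the 8787 transcripts), between 0.6 and 0.8 for 64, between 0.8 and 1 for 42, and above 1 for 18. The ratio was closer to 1 or higher in JP2NT-OE than in controls for 151 members and lower in JP2NT-OE for 13. Since the control ratio was fixed by the choice and the JP2NT-OE ratio was not, that split is a description only. Across the 164 members, the 2 ratios had a Spearman correlation of 0.283, and the ratios come from libraries that the genotypes do not share.

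**Figure D2:**
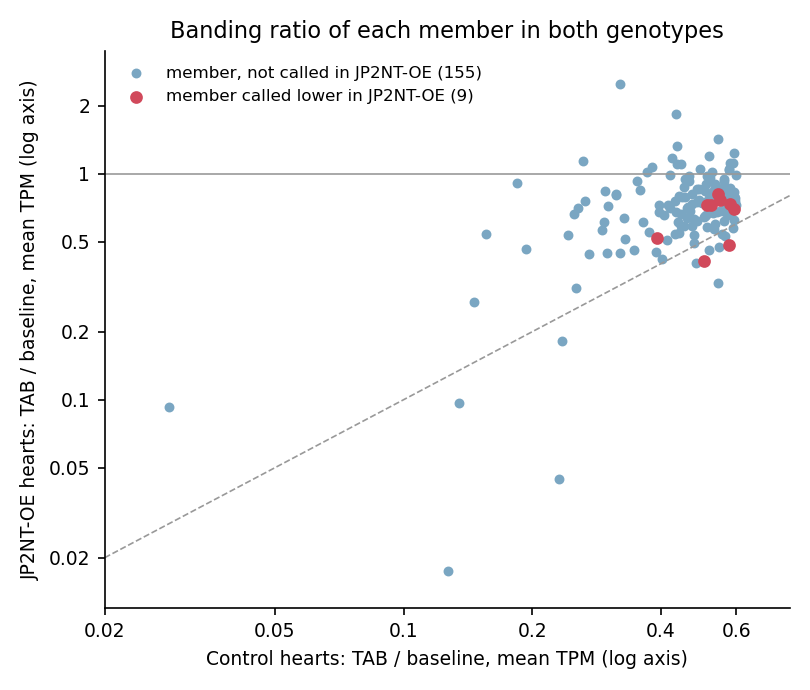
Ratio of TAB to baseline mean TPM in control hearts (horizontal, log axis) and in JP2NT-OE hearts (vertical, log axis), 1 point per member. The dashed line marks equal ratios and the solid line a ratio of 1 in JP2NT-OE. Most points, 151 of 164, lie above the dashed line and 146 below the solid one; red points are the 9 members called lower in JP2NT-OE.

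Members were chosen again by the same limits from 2 control baseline and 2 control TAB libraries. The control ratio was then read in the pair left out, so no library both chose and was read. The choice still used control hearts only, so a lower ratio in controls can still be partly built in. Over the 9 possible choices, which took 167 to 281 transcripts, the median ratio in the pair left out ran from 0.527 to 0.744. For the same transcripts, the median over the 9 single pairs of JP2NT-OE libraries ran from 0.749 to 0.821 between choices. The single pairs themselves ran from 0.677 to 0.890, which overlaps the control range. Within a choice, the control value was below the median of the JP2NT-OE pairs in 9 of 9 choices. It lay below all 9 JP2NT-OE pairs in 7. The other 2 choices left out control baseline replicate 2, where the control ratios were 0.744 and 0.704. The choices reuse the same libraries, so no test was made.

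**Figure D3:**
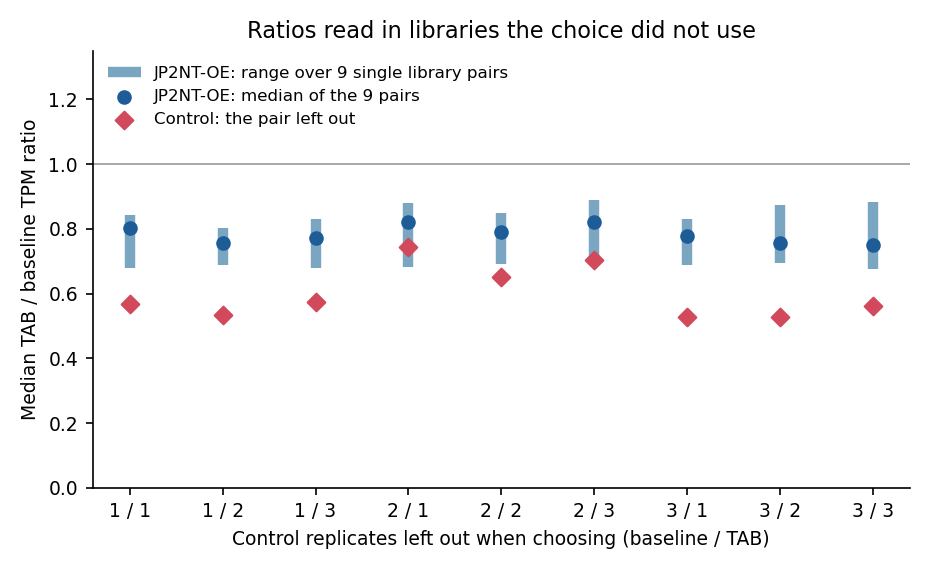
Median TAB to baseline TPM ratio (vertical axis) of transcripts chosen without the control baseline and control TAB replicates named on the horizontal axis. Red diamonds show the control pair left out (0.527 to 0.744), blue points the median of the 9 single JP2NT-OE library pairs (0.749 to 0.821) and bars the range of those pairs.

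The same reading set the levels of the 2 genotypes side by side, at baseline and after TAB, without a test. JP2NT-OE baseline levels stood at a median of 0.880 to 1.09 times the left-out control baseline library, above 1 only in the 3 of 9 choices that left out control baseline replicate 2. JP2NT-OE TAB levels stood at 1.155 to 1.30 times the left-out control TAB library, above 1 in all 9. With all libraries, the JP2NT-OE TAB mean lay between the highest control TAB and the lowest control baseline library for 89 of the 164 members. It was at or under the highest control TAB library for 52 and at or above the lowest control baseline library for 23. Every JP2NT-OE TAB library lay above every control TAB library for 69 members, and below every one for 2. Over the 8736 transcripts these shares were 5.71% and 29.1%. The choice had set the members' control TAB libraries low, so these counts are partly built in.

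Summed over the members, levels were lower after TAB in every library of both genotypes. The 2 most abundant members held 88.6% to 91.5% of the sum. With these set aside, the other 162 summed to 9821, 9639 and 11912 TPM in control baseline and 5363, 5838 and 6201 TPM in control TAB libraries. They summed to 9439, 9975 and 10039 TPM in JP2NT-OE baseline and 6865, 6915 and 8349 TPM in JP2NT-OE TAB libraries. The JP2NT-OE groups did not overlap, with a ratio of means of 0.751 (exact two-sided permutation p = 0.1, the smallest that 3 libraries against 3 allow). JP2NT-OE TAB replicate 3 was the highest of its group. The median member stood at 0.777 times the JP2NT-OE baseline mean there, compared with 0.6998 and 0.6995 in the other 2 libraries, and that library held the highest JP2NT-OE TAB value for 77 of the 164 members.

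**Figure D4:**
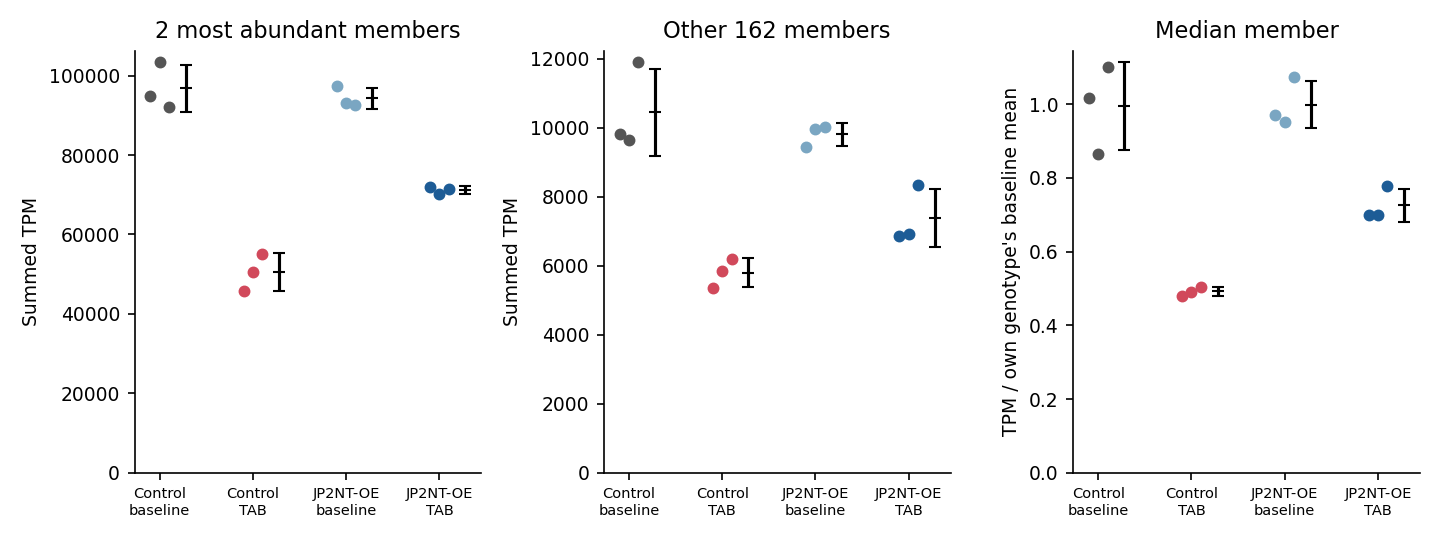
Summed TPM of the 2 most abundant members, summed TPM of the other 162, and the median over members of TPM relative to the mean of the same genotype's baseline, by group. Points are libraries, and black bars show the mean and SD (n = 3); all axes start at 0. In each panel the JP2NT-OE TAB libraries lie between the control TAB and the baseline libraries. The choice of members had set the control TAB libraries low, so that order is partly built in.

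Member by member, edgeR's quasi-likelihood test across 43256 transcripts called 9 of the 164 members lower and 0 higher after TAB in JP2NT-OE, at a Benjamini-Hochberg adjusted p under 0.05. All 164 had passed the filter on low counts. The 9 are 5.49% of the members, and the same rule called 0.132% of all tested transcripts lower and 0.106% higher. At an unadjusted p under 0.05, 102 members were lower (62.2%, compared with 5.93% of all tested transcripts) and 1 was higher (beside 6.09%). The median log2 fold change of the members was -0.60, beside 0.00 over all tested transcripts. The tested transcripts include every level that passed the filter, so these comparisons are not matched to the members' limit of 5 TPM. The number of calls depended on the tool and on single libraries. DESeq2 called 67 lower and 1 higher among the 156 members to which it gave an adjusted p, and over all transcripts it called 841 lower and 782 higher, compared with 57 and 46 for edgeR. From the 6 JP2NT-OE libraries alone edgeR called 0 members (100 lower with an unadjusted p under 0.05) and 2 transcripts lower in all. Leaving out a JP2NT-OE baseline library gave 2 calls (replicate 1), 0 (replicate 2, 97 lower unadjusted) or 1 (replicate 3) with edgeR, of 10, 2 and 4 lower transcripts in all. Leaving out a JP2NT-OE TAB library gave 1 call (replicate 1), 0 (replicate 2, 80 lower unadjusted) or 24 (replicate 3), of 7, 3 and 204 lower transcripts in all. The unadjusted share over all tested transcripts was counted for the main fit only, so the unadjusted counts of the other fits stand without one.

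The most abundant member, ENSMUST00000082407.1, is 204 bases long and was among the 9. Control libraries read 75380, 82240 and 72974 TPM at baseline and 44264, 49187 and 40359 TPM after TAB. JP2NT-OE libraries read 76723, 73067 and 72298 TPM at baseline and 55442, 53223 and 53803 TPM after TAB. Baseline levels overlapped between genotypes, and all 3 banded JP2NT-OE libraries lay above all 3 banded control libraries and below every baseline library. The mean was 54156 ± 1151 TPM after TAB and 74030 ± 2364 TPM at baseline in JP2NT-OE (SD, n = 3), a ratio of 0.732 compared with 0.580 in controls. The choice had set this member's control TAB libraries low, so its differences from banded controls are partly built in. In JP2NT-OE it fell by 0.67 on the log2 scale (SE 0.10, edgeR adjusted p = 0.0387). Without JP2NT-OE baseline replicate 1, 2 or 3 or TAB replicate 1 or 2 the edgeR adjusted p ran from 0.0644 to 0.135, and limma on log2(TPM + 1) gave an adjusted p of 0.114.

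The other 8 called members spanned 192 to 4256 bases and all had JP2NT-OE TAB libraries wholly below baseline. Over the 9, the JP2NT-OE ratio ran from 0.410 to 0.817 and the control ratio from 0.391 to 0.594. The lowest adjusted p belonged to a member of 192 bases, which read 726, 691 and 843 TPM at JP2NT-OE baseline and 503, 569 and 507 TPM after TAB (log2 fold change -0.73, SE 0.08, edgeR adjusted p = 0.0237). For 2 of the 9 the ratio was lower in JP2NT-OE than in controls. The first, of 4256 bases, read 9.55, 7.80 and 11.4 TPM at control baseline and 5.33, 4.71 and 6.51 TPM after control TAB. In JP2NT-OE it read 10.6, 12.0 and 9.48 TPM at baseline and 4.78, 5.83 and 4.91 TPM after TAB, so that both banded groups ended at like levels (edgeR adjusted p = 0.0344 in JP2NT-OE). The other, of 762 bases, had ratios of 0.410 in JP2NT-OE and 0.505 in controls (edgeR adjusted p = 0.0463 in JP2NT-OE), and was singled out after its values were seen.

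A contrasting pattern came from a called member of 930 bases, which kept most of its level in JP2NT-OE. It read 59.7, 53.6 and 63.2 TPM at control baseline and 31.6, 32.3 and 32.2 TPM after control TAB. In JP2NT-OE it read 63.6, 55.9 and 62.7 TPM at baseline and 51.0, 47.9 and 49.97 TPM after TAB. The banded JP2NT-OE libraries lay below every baseline library and above every banded control library, with ratios of 0.817 and 0.544. The choice had set its control TAB libraries low, so the gap to banded controls is partly built in. Its JP2NT-OE ratio was also the highest of the 9 called members. A called member of 1515 bases, the most abundant of those with undivided reads among the 9, read 468, 427 and 486 TPM at JP2NT-OE baseline and 306, 322 and 377 TPM after TAB (log2 fold change -0.61, SE 0.09, edgeR adjusted p = 0.0416). Its control ratio was 0.524 and its JP2NT-OE ratio 0.728.

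The lowest control ratio belonged to ENSMUST00000110084.2, a transcript of 4530 bases. It read 10.96, 5.20 and 7.34 TPM at control baseline and 0.310, 0.349 and 0.00475 TPM after control TAB, a ratio of 0.0282. In JP2NT-OE it already stood lower at baseline, at 4.91, 1.86 and 2.32 TPM, and it read 0.709, 0.00252 and 0.134 TPM after TAB. The JP2NT-OE groups did not overlap, with a ratio of 0.0930, but the fold change did not pass (log2 -3.56, SE 0.995, edgeR adjusted p = 0.163). It was -5.54 without JP2NT-OE TAB replicate 1, and limma on log2(TPM + 0.1) gave an adjusted p of 0.0366. Its estimated counts were not whole in any of the 12 libraries, so its reads were divided among similar transcripts. Whether reads moved between such transcripts was not tested.

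In the opposite direction stood ENSMUST00000152613.1, of 364 bases, the 1 member whose JP2NT-OE libraries were all higher after TAB. It read 5.35, 5.14 and 4.63 TPM at control baseline and 1.45, 2.38 and 1.003 TPM after control TAB. In JP2NT-OE it read 2.63, 2.15 and 3.35 TPM at baseline and 6.42, 7.50 and 6.42 TPM after TAB, a ratio of 2.50. The fold change did not pass with edgeR (log2 1.15, SE 0.31, adjusted p = 0.147) and passed with DESeq2 (adjusted p = 0.0165) and with limma on log2(TPM + 0.1) (adjusted p = 0.0236). The member had a mean of 32.2 estimated counts per library, which were not whole in any library, so its reads too were divided among similar transcripts.

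**Figure D5:**
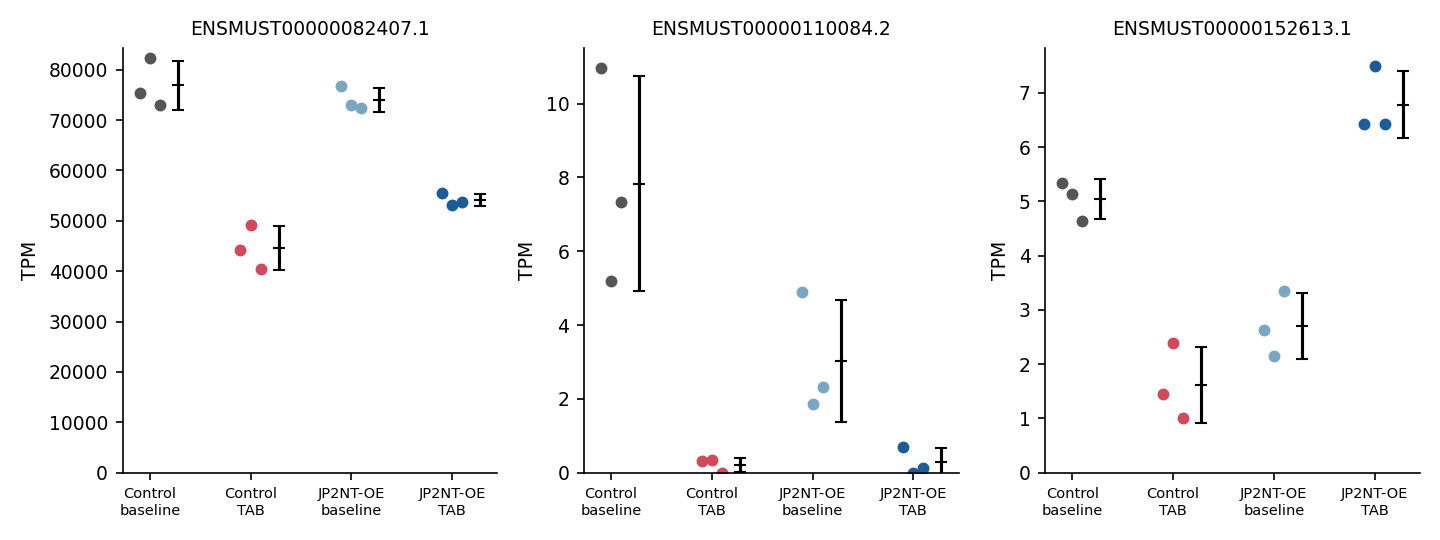
TPM in every library of the most abundant member (left), the member with the lowest control ratio (middle) and the member with the highest JP2NT-OE ratio (right). Points are libraries, black bars the mean and SD (n = 3), and axes start at 0. The right panel shows banded JP2NT-OE libraries at 6.42 to 7.50 TPM above every other library.

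Non-overlap was counted again by depth. Among the 69 members with a mean of at least 500 estimated counts, 44 (63.8%) had JP2NT-OE TAB libraries wholly below baseline, compared with 28 of 66 between 100 and 500 counts and 10 of 29 below 100. Among the 8736 transcripts the shares at these depths were 4.65%, 6.33% and 13.6%, an order opposite to that of the members. The median JP2NT-OE ratios of these 3 sets were 0.727, 0.750 and 0.740. The 18 members with a ratio above 1 had a median of 128 counts. Members were shorter than other transcripts of their level: the median length was 1375 bases, compared with 2034 over the 8736 transcripts of at least 5 TPM in control baseline, and 18.9% were 500 bases or less, compared with 6.06%. In JP2NT-OE the median ratio was 0.733 for the 31 members up to 500 bases and 0.740 for the 133 longer ones.

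Most members carry reads that were divided among similar transcripts. Estimated counts were whole, within 0.001, in all 12 libraries for 13 members (7.93%), compared with 12.3% of the 8736 transcripts. These 13, whose reads were assigned undivided, had a median ratio of 0.504 in controls and 0.643 in JP2NT-OE. For 8 of them every JP2NT-OE TAB library lay below every baseline library, and 3 of the 9 calls were among them. Among all transcripts of the 8736 with whole counts, these shares were 4.19% and, by edgeR's adjusted p, 0.466%. Of the 3, a member of 2636 bases read 10.1, 9.62 and 10.6 TPM at JP2NT-OE baseline and 4.96, 5.28 and 5.49 TPM after TAB (log2 fold change -1.10, SE 0.18, edgeR adjusted p = 0.0453).

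The limits that chose the members, applied to JP2NT-OE libraries in place of control ones, took 82 transcripts (0.933% of 8787). Of these, 36 were members, which is 43.9% of that list and 21.95% of the members. The shared 36 had median ratios of 0.436 in controls and 0.5004 in JP2NT-OE, which both choices had fixed to be low. The 46 that were not members had a median control ratio of 0.878, and 31 of them were below 1 in controls. The 2 lists share no library.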

How the data were processed

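RNA was measured in 12 libraries of polyadenylated RNA prepared with a stranded kit, per the labels' protocols. Chromatin samples, 7 of the 19 in the series, were not used here. Tools listed in the submitters' processing notes include kallisto 0.42.5, cutadapt 1.8.1 and FastQC 0.11.3, with mm10 as the build and no roles stated. Which transcript annotation was used is not given in the sources used here. Values in TPM deposited by the authors are corrected for effective length and sum to 1000000 per library. The estimated counts deposited by the authors are not whole where reads were divided among transcripts, and they sum to between 37662212 and 53097801 per library.

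The members were read from TPM in Python 3.11.15. Counts were rounded and tested per transcript over all 12 libraries with edgeR 4.0.16 in R 4.3.3 (filterByExpr, TMM scaling, 1 mean per group). This left 43256 transcripts, with adjustment over all of them. Tests are reported only for the JP2NT-OE contrast, whose 6 libraries took no part in the choice of members; its estimate of spread also uses the control libraries. DESeq2 1.42.0 and limma 3.58.1 served as alternatives, and the methods were tested on simulated data. Members and lists were chosen with earlier results of these data known. The rule for items named took members by highest control baseline level, lowest control ratio, lowest adjusted p and extreme JP2NT-OE ratio; because IDs carry no gene names, 3 IDs are printed. Gene lists and cell type markers could not be applied for the same reason, nor could counts be summed per gene.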

Additional observations from a re-analysis of the deposited data

Results flagged for a closer look

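ENSMUST00000152613.1 drew attention because its libraries moved in opposite directions in the 2 genotypes: every control TAB library lay below every control baseline library, which the choice of members requires, and every JP2NT-OE TAB library lay above every JP2NT-OE baseline library. Its ratio of TAB to baseline mean TPM was 2.50 in JP2NT-OE and 0.320 in controls. The difference between genotypes was not tested, because the control libraries had chosen the member. Among all 8787 transcripts with a JP2NT-OE baseline mean of at least 5 TPM, 29.4% had every banded JP2NT-OE library above every baseline library; this member was below that level, at 2.71 TPM.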

How the results depend on the processing

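Members whose JP2NT-OE TAB libraries lay wholly below baseline numbered 82 in TPM, beside 5.49% of all transcripts of at least 5 TPM. They numbered 102 in CPM, beside 15.8% of all transcripts of at least 5 CPM. With a library left out they numbered 88 to 100, beside 6.84% to 9.96% of all transcripts of at least 5 TPM. There the count can only stay or rise. Members called lower, 9 of 57 lower transcripts in all, were 67 of 841 with DESeq2, 27 of 81 with limma on log2(TPM + 0.1), 3 of 29 with limma on log2(TPM + 1), 2 of 14 without the filter on low counts, 0 of 2 with the 6 JP2NT-OE libraries alone, and 0 to 24 when 1 JP2NT-OE library was left out. Library totals alone gave 11 of 39, with the median of all tested transcripts moved to 0.10 on the log2 scale; limma on log2(TPM + 0.1) moved it to 0.15 and left the median member at -0.42. With the replicate block, edgeR called 0 members with all 12 libraries and 0 with the 6 JP2NT-OE libraries, of 0 lower transcripts in all each time. At an unadjusted p under 0.05, 103 and 104 members were lower, and the share over all transcripts was not counted for these fits. Same-numbered JP2NT-OE libraries had correlations of their deviations of -0.03, 0.05 and -0.08. Those of unlike number ran from -0.156 to 0.149. With 3 libraries per group, these values cannot tell whether same-numbered libraries were paired. Calls of higher members were 1 of 782 higher transcripts in all with DESeq2 and 1 of 904 with limma on log2(TPM + 0.1). In the main fit they were 0 of 46. The median JP2NT-OE ratio, 0.736, was 0.659 in TMM-scaled CPM, 0.683 and 0.797 for members chosen at ratio limits of 0.5 and 0.7, 0.784 for a minimum of 1 TPM, 0.835 for members chosen on CPM, and 0.705 to 0.812 with libraries left out; it stayed below 1 throughout. The number of members, 164, was 82 and 276 at the ratio limits of 0.5 and 0.7, 480 and 74 at minimums of 1 and 10 TPM, 520 on CPM, and 157 to 251 with 1 control library left out. The ratio of summed levels, 0.754 in TPM, was 0.668 in CPM. The causes of these shifts were not tested. Sums per gene were not run.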

Other observations

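Several members differed sharply between libraries of the same group. The second most abundant member, of 348 bases, read 19382, 21144 and 19195 TPM at control baseline and 1383, 1437 and 14854 TPM after control TAB. Its ratio to the control baseline mean was therefore 0.0695 and 0.0722 in control TAB replicates 1 and 2 and 0.746 in replicate 3. In JP2NT-OE the same transcript read 20672, 20055 and 20213 TPM at baseline and 16581, 16963 and 17530 TPM after TAB, a narrow spread with no overlap, and it did not pass the test (edgeR adjusted p = 0.908), in which all 12 libraries share the estimate of spread.

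A member of 298 bases stood at either of 2 levels in unoperated hearts of both genotypes: 34.4, 171 and 33.1 TPM in control baseline and 188, 181 and 30.2 TPM in JP2NT-OE baseline libraries. After TAB it read 21.2, 16.7 and 18.0 TPM in controls and 19.3, 31.0 and 22.9 TPM in JP2NT-OE, so that no banded library reached the higher level. A member of 750 bases had the lowest JP2NT-OE ratio, 0.0175. It read 49.9, 50.8 and 53.4 TPM at JP2NT-OE baseline and 0.724, 1.97 and 0.000527 TPM after TAB, below its control TAB values of 10.8, 0.218 and 5.18 TPM on average (edgeR adjusted p = 0.0523 in JP2NT-OE). The members of 298 and 750 bases had no whole estimated count in any library, so their reads were divided among similar transcripts. Whether reads moved between such transcripts was not tested. All 3 members belong to sets named by the rule, and these were picked from them after their values were seen.

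Among the members, uneven libraries were more common after banding. The highest library was over 3 times the lowest for 2 members in control baseline and 4 in JP2NT-OE baseline. These numbers were 19 in control TAB and 15 in JP2NT-OE TAB, where levels were also lower. The share over all transcripts was not counted. The choice required every control baseline library to lie above every control TAB library, so the control counts are partly built in.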
